A study of Mus musculus with 6 samples.

Results

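The 8 genes described here are lysozyme and macrophage-type genes: Lyz1, Lyz2, Mrc1, Cd14, Cd68, Csf1, Csf1r and Adgre1. They were matched by exact symbol in the authors' deposited table, and each had 1 of the 22206 transcript clusters, the gene-level probe sets of the array. Lyz1, Lyz2 and Mrc1 were chosen by their lower signal with Tsuru in these same arrays, so their difference between the groups is described with no test. The cells were 3T3-L1, a mouse fibroblast-like line that can form adipocytes. The 3 Tsuru samples received an extract of Tsuruazuki for 9 days and the 3 control samples did not. Per the treatment protocol all cells were given IBMX, insulin and dexamethasone after confluence and insulin medium from day 3, whereas the sample titles say of the controls only that they were kept in medium. The stock was 100 mg/ml and the protocol names its use at 1/1000 and at 1/100, without stating the dilution behind the arrays. Whether the samples were grown as separate cultures is not told by the labels. The p-values therefore set a difference against the spread among these samples only, and that spread may be technical.

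Lysozymes cut the peptidoglycan of bacterial cell walls. Mice carry a pair of closely related genes, Lyz1, known for its expression in the Paneth cells of the gut, and Lyz2, a standard marker of macrophages and neutrophils. Macrophages survive and multiply on the cytokine Csf1, which they sense through the receptor tyrosine kinase Csf1r, and fibroblasts and preadipocytes are known sources of that cytokine. In fat tissue the remaining genes are read as signs of resident macrophages: Adgre1 encodes the F4/80 antigen, Cd68 a glycoprotein of the lysosomal membrane, Mrc1 the mannose receptor that takes up glycoproteins, and Cd14 a co-receptor for bacterial lipopolysaccharide. A culture of 3T3-L1 is a single line and is not expected to hold macrophages.

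The 2 lysozyme genes are next to each other on chromosome 10 in RefSeq's gene order, on the same strand, and their start regions are shown because these are the members that differed most. The sequences are RefSeq's for build GRCm38.p6, cover 250 bases before and 50 after each gene's start, and read along the minus strand at chr10:117292819-117293118 for Lyz1 and chr10:117282223-117282522 for Lyz2. Capitals mark the longest run that is identical in both.

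Lyz1: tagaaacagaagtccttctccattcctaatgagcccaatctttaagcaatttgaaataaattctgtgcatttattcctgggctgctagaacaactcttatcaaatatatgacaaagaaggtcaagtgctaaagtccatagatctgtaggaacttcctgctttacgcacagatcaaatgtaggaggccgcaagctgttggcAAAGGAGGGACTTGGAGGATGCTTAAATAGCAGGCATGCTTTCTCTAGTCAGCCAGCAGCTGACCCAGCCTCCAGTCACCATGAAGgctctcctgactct
Lyz2: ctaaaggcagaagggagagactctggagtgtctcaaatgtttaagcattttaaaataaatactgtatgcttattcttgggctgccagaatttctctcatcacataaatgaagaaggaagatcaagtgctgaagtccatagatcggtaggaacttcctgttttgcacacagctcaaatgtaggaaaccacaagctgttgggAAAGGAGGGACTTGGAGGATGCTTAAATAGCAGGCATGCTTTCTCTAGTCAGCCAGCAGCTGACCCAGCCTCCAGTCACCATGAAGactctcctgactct

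The shared run is 86 bases long and spans bases 201 to 286 of each window. In a global alignment 254 of 290 aligned bases were identical, with 20 gap positions. Probe sequences were not used here, so whether the cluster of either gene also reads the other's transcript was not tested. RefSeq start regions were matched for 5 of the 8 members, Lyz1, Lyz2, Mrc1, Cd68 and Csf1, and were searched on both strands for 4 short motifs. GAGGAA, a core recognised by the myeloid factor PU.1, was found in the windows of Cd68 (2 matches) and Mrc1 (3 matches) and is held by 28.1% of all 32544 windows. TTNNGNAA, a loose form of the C/EBP site, had 1 match each in Lyz1 and Lyz2, 2 overlapping matches in Mrc1 and 3 matches in Cd68, and is held by 40.7% of all windows. GAAANNGAA, a part of the interferon response element, matched once in Lyz1 (8.5% of all windows). GGGANTTCC, a form of the NF-kB site, was in none of these 5 windows (1.7% of all windows). Any overlap between different motifs was allowed.

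Both lysozyme clusters had their highest reading on control replicate 1. The Lyz1 signal was 8.39, 7.69 and 6.24 on control replicates 1, 2 and 3 and 6.14, 5.92 and 6.11 on Tsuru replicates 1, 2 and 3, on the log2 scale. Its Tsuru values lay close together, its control values ranged over 2.15, and the groups were apart by 0.09, the gap between control replicate 3 and Tsuru replicate 1. The group means were 7.44 ± 1.10 (SD, n = 3) in controls and 6.06 ± 0.12 (SD, n = 3) with Tsuru, a difference of -1.38 ± 0.43 (limma's moderated SE, as for all differences below).

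The Lyz2 signal was 7.88, 6.50 and 5.88 on the control arrays and 6.43, 5.28 and 4.67 on the Tsuru arrays. Here the groups overlapped, since Tsuru replicate 1 read higher than control replicate 3. In both groups the signal fell from replicate 1 to replicate 3, and for each replicate number the Tsuru array read lower. The means were 6.75 ± 1.02 (SD, n = 3) and 5.46 ± 0.90 (SD, n = 3), a difference of -1.29 ± 0.52 (SE). The 2 lysozymes took the same order on the control arrays, both reading highest on replicate 1 and lowest on replicate 3. They did not share a pattern among the Tsuru arrays, where Lyz1 was flat and Lyz2 ranged over 1.76.

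Mrc1 read 6.70, 4.80 and 6.23 on the control arrays and 4.49, 4.53 and 5.26 on the Tsuru arrays. Control replicate 2 fell among the Tsuru values, so the groups overlapped, and the array that was low for this gene was not the array that was low for the lysozymes. The means were 5.91 ± 0.99 (SD, n = 3) and 4.76 ± 0.43 (SD, n = 3), a difference of -1.15 ± 0.43 (SE). These 3 genes varied more within groups than nearly all others: the pooled SD was 0.781 for Lyz1, 0.962 for Lyz2 and 0.764 for Mrc1, and 99.4%, 99.7% and 99.3% of all clusters had a smaller one. A difference at least as low as that of Mrc1 was measured for 84 clusters, or 0.378% of all, a place that follows from how the 3 genes were picked. In bulk RNA, fewer cells of a type and less RNA per cell cannot be told apart.

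**Figure D1:**
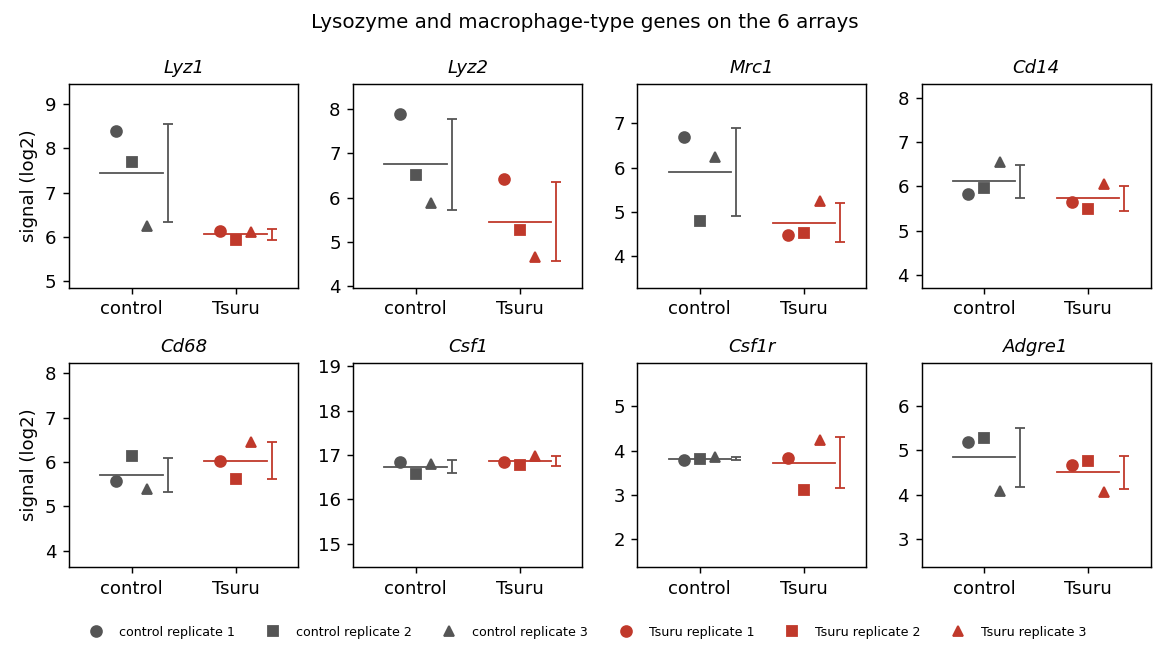
Log2 signal of each of the 8 genes on every array, with control arrays in grey and Tsuru arrays in red. Horizontal lines are group means, bars are the SD over 3 arrays, and every panel spans the same number of log2 units. Lyz1, Lyz2 and Mrc1 have widely spread controls, and Csf1 is level near 16.8.

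The other 5 genes were not picked for their values. Cd14 read 5.83, 5.96 and 6.55 on the control arrays and 5.65, 5.49 and 6.05 on the Tsuru arrays. Tsuru replicate 3 lay above control replicates 1 and 2, and the difference of -0.38 ± 0.23 (SE) did not pass limma's moderated test (adjusted p = 0.556). Cd68 had the opposite direction, with 5.58, 6.14 and 5.40 in controls and 6.03, 5.61 and 6.46 with Tsuru. Its groups interleaved, at a difference of 0.33 ± 0.26 (SE, adjusted p = 0.660).

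The F4/80 gene Adgre1 read 5.19, 5.26 and 4.07 on the control arrays and 4.68, 4.75 and 4.06 on the Tsuru arrays. In each group replicate 3 was the lowest and the others were close together, and the difference was -0.34 ± 0.32 (SE, adjusted p = 0.708). Csf1r, the receptor, read 3.78, 3.82 and 3.85 in controls and 3.85, 3.11 and 4.24 with Tsuru, so the control values lay inside the Tsuru range (difference -0.09 ± 0.26, SE, adjusted p = 0.928). Csf1, its ligand, read 16.85, 16.56 and 16.80 in controls and 16.84, 16.77 and 16.98 with Tsuru. It was bright and even on every array, at a pooled SD of 0.131 and a difference of 0.13 ± 0.17 (SE, adjusted p = 0.804).

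Across the whole array no cluster reached an adjusted p under 0.05 in that test (0% of 22206, lowest adjusted p 0.259), while 2472 had an unadjusted p under 0.05. The series' methods counted genes with an unadjusted p under 0.05 together with a linear fold above 1.1, here called the methods' rule, which 11.1% of clusters passed here, 5.38% lower and 5.75% higher with Tsuru. Of the 5 genes not picked for their values, 0 passed it. The 3 picked genes passed it, which the choice of members fixes. Groups that did not overlap were found for 7.75% of clusters in the lower direction and 9.06% in the higher direction, and among the 8 genes for Lyz1 alone.

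The array's 5222 negative control sets give a yardstick against which these signals can be read. Their median lay between 5.44 and 5.69 by array, and their 95th percentile between 9.37 and 9.88. It is a high yardstick, since the median of all clusters lay between 5.43 and 5.59 and the array's background sets averaged 4.51 to 4.62. A reading near the negative median was thus near that of a typical cluster, and it does not show that a gene was absent. Csf1 was above 99.5% to 99.7% of the negative sets on its 6 arrays. None of the other 7 members exceeded the 95th percentile on any array. Lyz1 lay above 88.1%, 83.7% and 65.4% of the negative sets on control replicates 1, 2 and 3, and above 57.2% to 62.9% on the Tsuru arrays. Lyz2 lay above 83.9%, 67.2% and 58.8% on the control arrays and above 68.3%, 44.4% and 30.7% on the Tsuru arrays. For Mrc1 those shares were 68.8%, 34.8% and 65.3% in controls and 28.7%, 28.9% and 42.4% with Tsuru, so 2 of its 6 readings were above the median of the negative sets. Cd14 and Cd68 lay near that median, at 48.5% to 71.5% and 47.9% to 66.4%. Adgre1 (19.6% to 44.1%) and Csf1r (5.5% to 22.5%) were under it on every array. The signals of those 7 genes thus lay within the range of the negative sets, and the size of their differences is not exact.

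**Figure D2:**
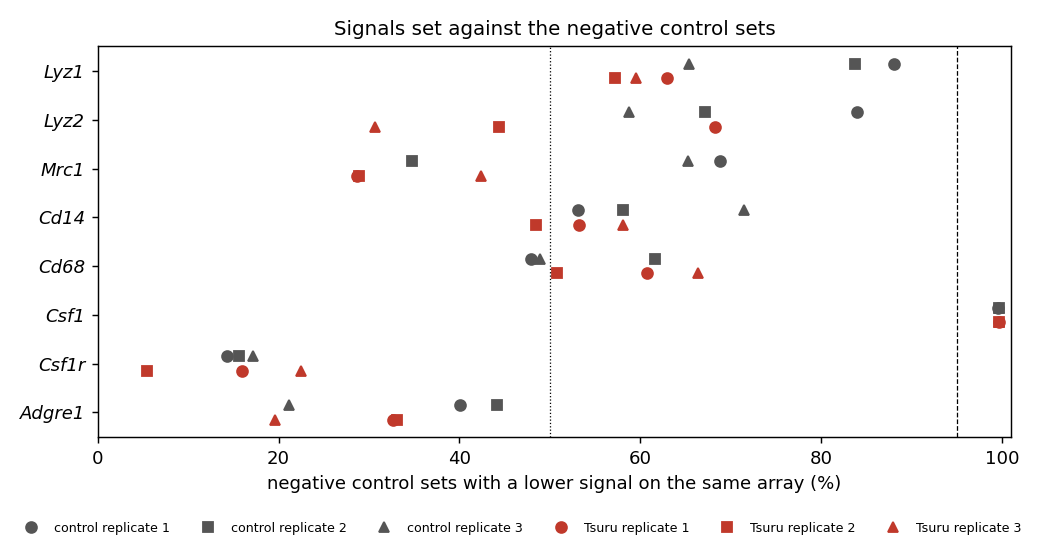
Share of the 5222 negative control sets with a lower signal than each gene on the same array, in percent, with control arrays in grey and Tsuru arrays in red. The dotted line marks the median of the negative sets and the dashed line their 95th percentile. Csf1 alone lies to the right of the dashed line.

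Leaving out 1 array at a time moved the size of the differences of the 3 picked genes. Their direction is what they were picked by, so nothing is read from it. Without control replicate 1 the difference was -0.90 for Lyz1, -0.73 for Lyz2 and -0.76 for Mrc1. Without control replicate 3 it was -1.98 for Lyz1 and -1.73 for Lyz2, and without control replicate 2 it was -1.71 for Mrc1. The Tsuru arrays mattered most for Lyz2, at -1.78 without replicate 1 and -0.89 without replicate 3. Among the other genes, Csf1r changed direction without Tsuru replicate 2, at 0.22. Cd14 was at -0.17 without control replicate 3, Cd68 ran from 0.11 without Tsuru replicate 3 to 0.54 without control replicate 2, and Adgre1 ran from -0.13 without Tsuru replicate 3 to -0.73 without control replicate 3.

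**Figure D3:**
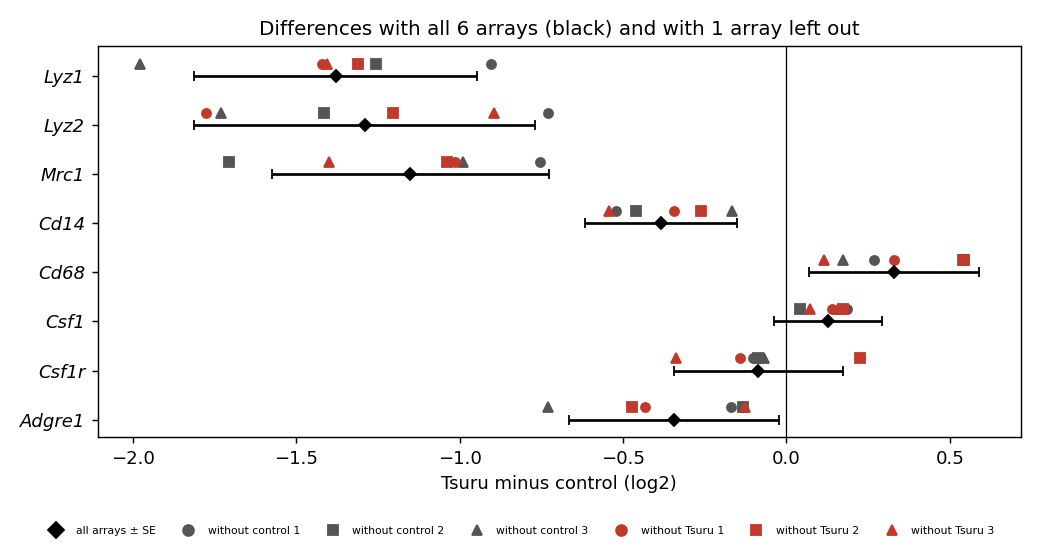
Difference between groups, Tsuru minus control on the log2 scale, for each gene. Black diamonds with bars are the values over all 6 arrays ± SE, and coloured symbols are the values with the named array left out. Csf1r is the gene whose symbols lie on both sides of 0.

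The authors' deposited table gives its own group averages, which for all 8 genes lay within the range of the arrays. Over all clusters 31.9% of its Tsuru averages and 27.8% of its control averages lay outside the range of the 3 arrays by more than 0.01, so that table and the array values were not made in the same way. In the authors' deposited table the fold was -3.24 for Lyz1 (p-value 0.0064), -2.47 for Lyz2 (0.0153) and -3.65 for Mrc1 (0.03), with FDR p-values of 0.3191, 0.3375 and 0.3793. That table's filtered list also holds Cd14, at a fold of -1.39 (p-value 0.0228, FDR p-value 0.358), a gene whose groups overlapped on the arrays. Cd68 at 1.3, Csf1 at -1.01, Csf1r at -1.04 and Adgre1 at -1.5 were outside the authors' filtered list. The sign of Csf1 is the single sign among the 8 genes that differs between the authors' deposited table and the array values.

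The relatives of each gene were read as lists, set up with earlier results of these data known. In the lysozyme family, which has 10 measured genes, the 8 relatives of Lyz1 and Lyz2 had a median difference of -0.13, against 0.00 over all clusters, and 0 of them passed the methods' rule, which 11.1% of all clusters passed. The c-type relatives Lyzl4 (-0.17), Lyzl6 (0.20), Lyzl1 (0.06), Spaca3 (-0.20) and Spaca5 (-0.03), the latter 2 being sperm lysozyme-like genes, the g-type genes Lyg1 (-0.09) and Lyg2 (-0.28), and Lalba (-0.35), which encodes the milk protein alpha-lactalbumin, were all under the median of the negative sets on all 6 arrays. The directions of Spaca3, Spaca5 and Lyzl1 changed when single arrays were left out, that of Spaca5 also with array medians subtracted, quantile normalization or array weights.

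The mannose receptor family behaved unevenly. Mrc2, the fibroblast member, which encodes the collagen uptake receptor Endo180, read 16.04, 16.12 and 15.99 in controls and 16.25, 16.33 and 16.35 with Tsuru. Its groups did not overlap, and the difference of 0.26 ± 0.15 (SE) did not pass (adjusted p = 0.549). Ly75, which encodes the dendritic cell receptor DEC-205, had a difference of -0.45 ± 0.24 (SE, adjusted p = 0.511) and read highest on control replicate 3, at 7.17. Pla2r1, a phospholipase receptor gene, was at -0.04. In the LAMP family of lysosomal membrane proteins to which Cd68 belongs, Lamp1 and Lamp2 were far above the negative sets and differed by -0.12 ± 0.18 and 0.01 ± 0.16 (SE), and Lamp2 was below 0 in 4 of the alternatives. The dendritic cell member Lamp3 passed the methods' rule, lower at -0.65 ± 0.27 (SE, adjusted p = 0.424), with overlapping groups. It was above the median of the negative sets on 1 array. Lamp3 was at -0.41 without control replicate 1, where it no longer passed, and at -0.41 without Tsuru replicate 2. The remaining member Lamp5 was at -0.19.

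Genes of the colony stimulating factors and their receptors gave 0 passes among the 6 relatives of Csf1 and Csf1r, beside 11.1% of all clusters, with a median of -0.10. With lists this small a count of 0 is near that share. Il34, the other ligand of Csf1r, read between 5.49 and 5.95 over the 6 arrays and differed by -0.17 ± 0.17 (SE, adjusted p = 0.743). The receptor genes Csf2ra, Csf2rb and Csf3r stood at -0.18, -0.10 and -0.09, the cytokine genes Csf2 and Csf3 at -0.04 and 0.02, and Csf2rb, Csf3r, Csf2 and Csf3 changed direction when single arrays were left out. Adgre4, a relative of Adgre1, was at 0.05, and its direction changed as well.

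Cd14 works with Toll-like receptors, and of 33 other measured genes of that pathway 4 passed the methods' rule higher with Tsuru and 1 lower, or 15.2% against 11.1% of all clusters, with a median of 0.15. The kinase genes Irak2 and Irak4, which act downstream of the receptors, differed by 0.75 ± 0.22 and 0.66 ± 0.22 (SE, adjusted p = 0.352 and 0.374), and Ikbkb, a kinase that frees NF-kB, by 0.71 ± 0.21 (adjusted p = 0.352). The groups of these 3 genes and of Map3k7 did not overlap. That made 4 of the 34 measured genes, Cd14 included, in the higher direction, where 9.06% of all clusters did so. Irak2, Irak4 and Ikbkb did not exceed the 95th percentile of the negative sets on any array. Irak3, which encodes an inhibitory member, was at 0.70 ± 0.27, and was under the median of the negative sets on all arrays. Tlr7, named after its values were seen, was the gene that passed lower, at -0.85 ± 0.36, also under that median. Without control replicate 1 the counts were 3 higher and 0 lower. The lipopolysaccharide receptor itself was level: Tlr4 was above the 95th percentile of the negative sets on all 6 arrays and differed by 0.03 ± 0.21 (SE), and its partner Ly96 by 0.25 ± 0.21.

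Most macrophage markers outside the 8 genes were low. Of 46 such markers, 0 exceeded the 95th percentile of the negative sets on any array, 35 were under the median of the negative sets on all 6 arrays, and 7 were above that median on all 6. Many other genes were under it too: of 21154 genes with a cluster of 1 symbol, 11478 were above it on at least 1 array, leaving out the gene compared. The share of all clusters above the 95th percentile was not counted. The 35 include the defining genes Itgam (3.32 to 3.90), Aif1 (3.50 to 4.49), Tyrobp (2.79 to 3.78), Spi1 (2.98 to 4.33), C1qa (2.77 to 3.53) and Cd163 (4.34 to 5.01). The 7 were Cd53, above 89.7% to 94.2% of the negative sets, Mertk, a receptor for dying cells (81.2% to 91.0%), Cd80, a co-stimulatory ligand (68.6% to 79.5%), Cd300lf (68.1% to 79.0%), Siglec1 (61.4% to 79.1%), the lysosomal gene Laptm5 (53.6% to 57.9%) and the pan-leukocyte gene Ptprc, which encodes CD45 (52.6% to 62.0%). By the same yardstick 11 of 16 adipocyte markers and 11 of 12 fibroblast markers were above the 95th percentile on all arrays. Of 24 markers of other leukocytes, 0 exceeded it on any array.

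Macrophage markers as a list were centred near 0. The median difference over the 46 was -0.02, with 24 lower and 22 higher, and it was above 0 with array medians subtracted, with quantile normalization and without Tsuru replicate 3 or control replicate 1. The mean signal of the list ran from 4.49 to 4.61 on control arrays and from 4.45 to 4.57 on Tsuru arrays. The methods' rule was passed by 4 lower and 1 higher, or 10.9% against 11.1% of all clusters, and by 3 lower and 1 higher without control replicate 1. The lower genes were Clec4e, a C-type lectin that senses damaged cells and mycobacteria (-0.75 ± 0.18, SE, adjusted p = 0.341), Cd53, a leukocyte tetraspanin (-0.47 ± 0.19, adjusted p = 0.411), Cd300lf, an inhibitory myeloid receptor (-0.47 ± 0.16, adjusted p = 0.374), and Spi1, which encodes PU.1 (-0.71 ± 0.29, adjusted p = 0.421). The higher gene was Siglec1, sialoadhesin, at 0.49 ± 0.21 (adjusted p = 0.429), named after its values were seen. The groups did not overlap for Clec4e, Cd53, Cd300lf and Siglec1, or 3 lower and 1 higher of 46. Over all clusters 7.75% did so in the lower and 9.06% in the higher direction. Clec4e was above the median of the negative sets on 1 array. The 24 other leukocyte markers had a median of 0.03, with 2 genes (8.33%, against 11.1% of all clusters) past the rule, both higher. These were Cd3d, a T cell receptor gene, at 0.75, and S100a8, a neutrophil gene, at 0.44. Cd3d was above the median of the negative sets on 1 array. The 27 inflammatory cytokine and chemokine genes had a median of 0.01, which was below 0 under 4 alternatives, with Cx3cl1 (0.83 ± 0.26, SE) and Cxcl1 (0.48 ± 0.18) past the rule and higher, or 7.41% against 11.1% of all clusters. Cxcl1 was under the median of the negative sets on all arrays. Ccl2, the monocyte chemoattractant, was at -0.62 ± 0.33 (adjusted p = 0.506), or -0.26 without control replicate 3.

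**Figure D4:**
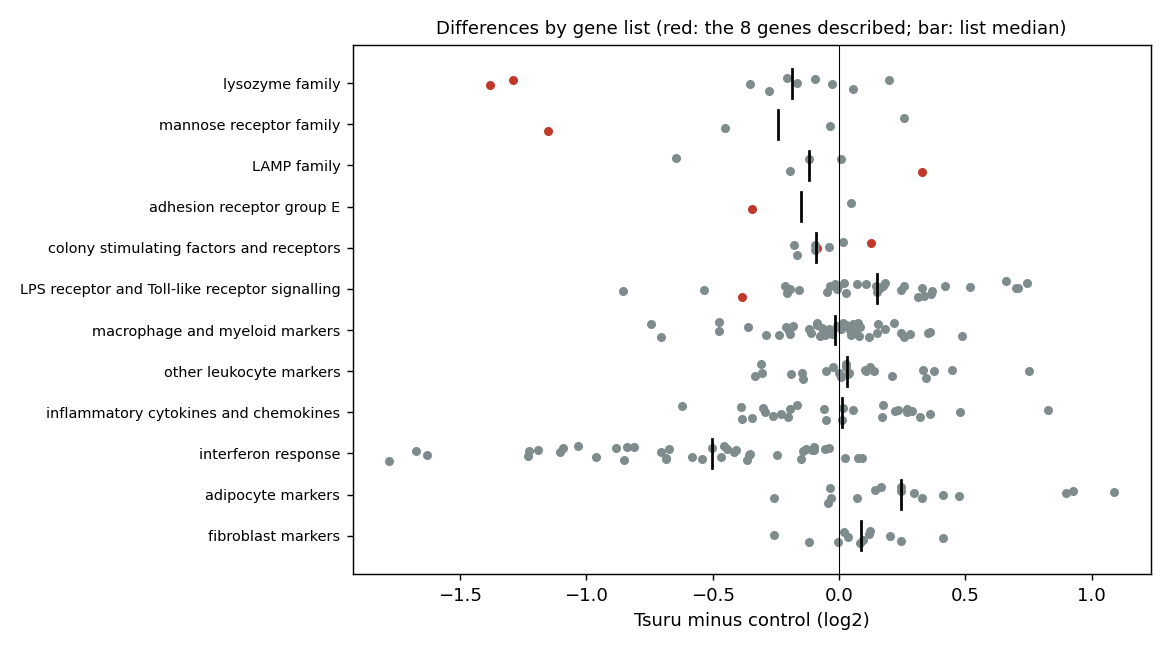
Difference between groups, Tsuru minus control on the log2 scale, for every measured gene of the 12 lists. Each dot is a gene, the 8 genes described are red, and the bar is the list's median. Lyz1, Lyz2 and Mrc1 have the lowest values of their own families, but they were picked for their fall, so nothing is read from that place. The macrophage and myeloid markers, most of them under the median of the negative sets on all arrays, centre near 0.

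The array on which Lyz1, Lyz2 and Mrc1 were highest, control replicate 1, also stood apart in other ways. Its mean correlation with the other arrays was 0.987, against 0.991 to 0.992 for the others, and the 41 measured interferon response genes had a median deviation of 1.45 on it, against -0.69 to 0.04 on the other 5 arrays. The deviations of Lyz1, Lyz2 and Mrc1 from their own means were 1.64, 1.77 and 1.37 on that array. The median difference of the interferon list was -0.50 over all arrays. Past the rule were 2 of its genes, Dhx58 (-0.96) and Oas1g (-0.58), or 4.88% against 11.1% of all clusters. Oas1g was under the median of the negative sets on every array. Without control replicate 1 the median difference of the list was 0.03, with 0 genes past the rule. The part of that array in the differences of the 3 genes was not tested beyond the values without it given above. The macrophage markers, most of them under the median of the negative sets on all arrays, deviated by a median of 0.01 on control replicate 1.

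**Figure D5:**
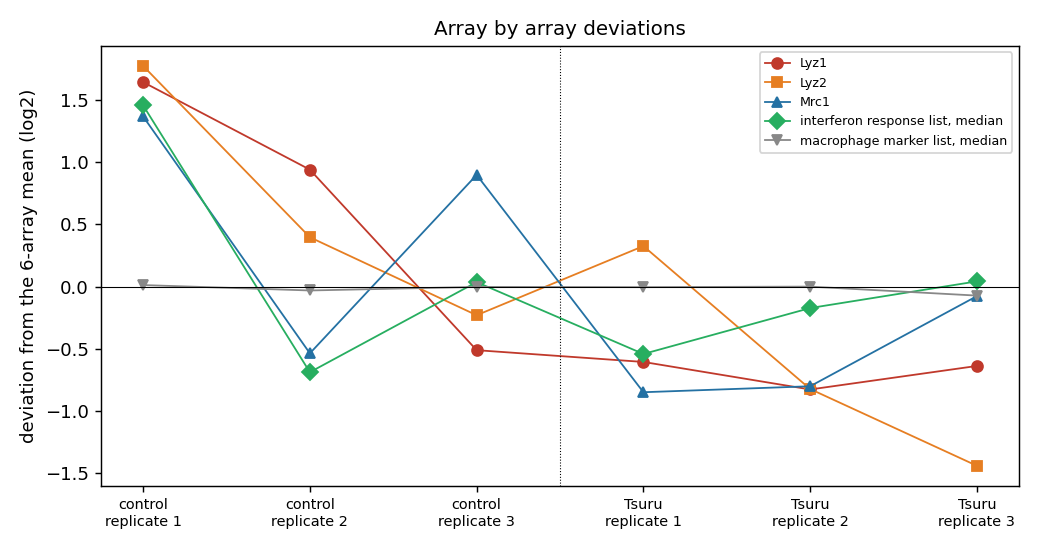
Deviation of each array from the mean over all 6 arrays, on the log2 scale, for Lyz1, Lyz2 and Mrc1 and for the median gene of 2 lists. The 3 genes and the interferon list peak on control replicate 1, and on the remaining arrays they take different orders. The macrophage marker list stays between -0.07 and 0.01, and most of its genes were under the median of the negative sets on all arrays.

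Genes with the most similar pattern were found by the Euclidean distance between values centred on each gene's mean over the 6 arrays, among 11478 genes that were above the median of the negative sets on at least 1 array. The search follows the values by which Lyz1, Lyz2 and Mrc1 were picked, and a gene could enter it through its control arrays alone, so the neighbours are a description only. The 5 nearest named genes to Lyz2, with olfactory and vomeronasal receptors and predicted genes passed over, were Mup19 (distance 0.332), Mup12 (0.904), Slc6a19 (1.13), Speer4c (1.18) and Speer4d (1.25). Mup19 and Mup12 belong to the many-copy family of major urinary proteins, and the Speer genes to another many-copy family. Mup19 read 8.29, 7.25 and 6.30 on the control arrays and 6.82, 5.93 and 5.27 on the Tsuru arrays, the same order of arrays as Lyz2. For Lyz1, added after the values were seen, they were Spin2e (0.504), Speer4d (0.639), Ffar3 (0.867), Cpm (0.868) and Krtap6-5 (0.943). Spin2e, for example, read 6.62, 5.60 and 3.99 in controls and 3.89, 4.08 and 3.83 with Tsuru. Of the 20 nearest genes without any passed over, 18 had a passed-over kind of name for each lysozyme, where 9.20% of the genes compared do. The 2 lysozymes were 1.38 apart, which placed Lyz1 at rank 72 from Lyz2 and Lyz2 at rank 196 from Lyz1.

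Mrc1 had other neighbours. Its nearest were Apod (0.400), which encodes the lipid carrier apolipoprotein D, Slfn9 (0.511), Casc4 (0.694), Apol9a (0.914) and Slc6a17 (0.938), and 5 of its 20 nearest had a passed-over kind of name. The interferon list, with 41 measured genes, held 3 of those 20 and 0 of the 20 nearest to either lysozyme. At most 41 of the 11478 genes compared were on that list, and the exact share was not counted. The neighbours follow the values by which Mrc1 was picked, so no link is read from the count. Apod was brighter, at 10.2, 7.85 and 9.47 on the control arrays and 7.73, 8.01 and 8.43 on the Tsuru arrays, and like Mrc1 it was low on control replicate 2.

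Of the 5 protein-coding genes on either side of the lysozymes in RefSeq's order, looked at after the values were seen, 2 of these 10 passed the methods' rule, both lower with Tsuru, where 5.38% of all clusters passed in that direction. Cpm, which encodes a membrane carboxypeptidase and lies 2 genes from Lyz1, read 10.7, 9.27 and 7.90 on the control arrays and 7.37, 7.49 and 7.46 on the Tsuru arrays. The groups did not overlap, and the controls took the same order as for Lyz1. The difference was -1.86 ± 0.54 (SE, adjusted p = 0.352), or -1.14 without control replicate 1 and -2.56 without control replicate 3. Nup107, a nuclear pore gene 5 genes away, differed by -0.71 ± 0.16 (SE, adjusted p = 0.341) with groups that did not overlap. The genes between include Cpsf6 and Slc35e3, which differed by 0.12 and 0.10, and Mdm2, which held the same value of 19.93 on 5 of 6 arrays, near the top of the scale, where no difference can be read. The gene 9530003J23Rik, which lies on the other side of Lyz2 and for which RefSeq lists the synonym Lyzf1, differed by -0.33 ± 0.19 (adjusted p = 0.543). Its groups did not overlap, as for 7.75% of all clusters in the lower direction. The gene lay above only 3.6% to 14.7% of the negative sets, and it was not in the lysozyme list above. The remaining genes on that side, Yeats4, Frs2, Cct2 and Lrrc10, differed by 0.03, 0.16, 0.07 and -0.19.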

How the data were processed

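The deposited value table holds a log2 signal per probe set and array, made by the authors with SST-RMA in Transcriptome Analysis Console 4.0.2, per the series design text. Its 6640 control sets stayed out of the tests. Symbols, group averages, signed linear fold changes, p-values and FDR p-values come from the authors' deposited table, per the file headers. No source used here gives the genome build of the clusters. limma 3.58.1 (lmFit, eBayes) in R 4.3.3 was fitted to Tsuru minus control on all 6 arrays, and p-values were adjusted by Benjamini-Hochberg across the 22206 clusters. The prior had 5.86 degrees of freedom. The fit was tested on simulated data. The authors' filters on detection were not applied. Named genes were the members, every gene of lists of at most 10, up to 4 further genes per list by smallest p, and the 5 nearest in pattern to Lyz2 and Mrc1. Siglec1, Tlr7, the genes like Lyz1 and the chromosomal neighbours were added after seeing the data, as were the marker ranges shown. The members and the 12 lists, with 229 of 233 entries measured, were chosen with earlier results of these data known. The alternatives were quantile normalization, array medians subtracted, a filter on mean log2 above 6, a variance trend, no empirical Bayes step, array weights, the replicate number as a block, each array left out, the mean over a gene's clusters and the authors' fold. Scan dates were not used here, so no batch was tested.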

Additional observations from a re-analysis of the deposited data

How the results depend on the processing

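The count of clusters at an adjusted p under 0.05 in limma's test was 0 in the settings run, except without control replicate 3, where it was 25. Leaving out single arrays thus gave 0 to 25. The methods' rule was passed by 2472 clusters and, where only clusters with a mean log2 above 6 were tested, by 1309. Leaving out single arrays gave 1659 to 3616. With array medians subtracted the split was 766 lower and 2026 higher, against 1195 lower and 1277 higher as deposited. Whether samples with the same replicate number belong together is not told by the labels. Over all clusters, deviations of samples with the same number correlated at 0.002, 0.006 and 0.186. Of the 6 samples, 2 correlated best with their own number. These values cannot settle whether the samples were paired. Single members differed in how far their values followed the replicate number. The block lowered the SE of Lyz2 from 0.52 to 0.18, and less so that of Lyz1, Mrc1, Cd14, Csf1r and Adgre1. It raised the SE of Cd68 and Csf1. With the replicate block 2775 clusters passed the methods' rule and 0 an adjusted p under 0.05. Of the 5 members not picked for their values, Cd14, Cd68 and Adgre1 kept their sign under all alternatives run, and the exceptions were Csf1, at -0.01 by the authors' deposited table, and Csf1r, at 0.22 without Tsuru replicate 2. The lowest adjusted p of the 5 members not picked was 0.192 over the alternatives. Of 87 results, 69 kept their sign under every alternative run. The cause of these changes was not tested, apart from the smaller number of clusters tested under the filter. With 3 arrays a group the precision is limited, and 7 of the 8 members lay within the range of the negative control sets.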
